A study of Mus musculus with 13 samples.

Results

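The genes described here are 10 effectors and targets of Wnt signalling, taken by symbol from the 27998 gene identifiers of the count tables: Lef1, Tcf7, Tcf7l1, Tcf7l2, Ctnnb1, Axin2, Nkd1, Rnf43, Gsk3b and Gpc3. All 10 were found, and all 10 passed the filter on low counts in every fit. They were followed in basal, hair follicle and dermal cells of 13 single-cell RNA libraries of mouse back skin on a C57BL/6 background. There were 2 wild type (WT) and 2 Grhl3-/- libraries each at E14.5, at E16.5 and at P0, the latter lacking the transcription factor GRHL3 in all cells, and 1 more WT library at P0 was made with an older version (v1) of the Chromium chemistry. Whole back skin was used at E14.5 and E16.5, and epidermis separated from dermis at P0, a stage the methods also write as E18.5. Genotypes were littermates, every Grhl3-/- embryo had spina bifida, and skin was taken between the forelimbs, away from the lesion. Age, tissue preparation and cell composition therefore changed together between E16.5 and P0 and cannot be told apart.

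In canonical Wnt signalling a ligand at the cell surface stops a destruction complex, which holds the scaffold AXIN2 and the kinase GSK3B, from marking β-catenin (Ctnnb1) for breakdown. β-catenin then enters the nucleus and works with the DNA-binding proteins LEF1, TCF7, TCF7L1 and TCF7L2, of which TCF7L1 acts mostly as a repressor. Axin2, Nkd1 and Rnf43 are transcribed in response and feed back on the pathway: AXIN2 on β-catenin, NKD1 on Dishevelled and the ubiquitin ligase RNF43 on the Frizzled receptors. GPC3 is a glypican, a cell surface proteoglycan that binds growth factors including Wnts and Hedgehog. In skin the pathway is known for starting hair placodes, for dermal condensates and for the hair matrix.

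Classes were rebuilt from marker genes and are called "-like". Basal-like cells of the interfollicular epidermis (IFE) numbered 7654 in all, 127 to 1684 per library. Follicle-like cells numbered 19849 (22 to 4977 per library) and dermal-like cells 26399 over 11 libraries (36 to 4260). The E14.5 WT follicle-like sums held 22 and 55 cells, so their values carry wide counting error. Libraries held 49245953 to 107038146 UMIs. Clusters were named from these same marker lists, so marker sums describe the classes and do not test the names. Before birth, summed basal IFE markers reached 8683 to 26990 CPM (UMIs scaled to the library's class total) in basal-like sums. Summed fibroblast markers reached 28780 to 33040 CPM in dermal-like sums at E16.5. At P0 the dermal-like cells of the epidermal preparation all fell in clusters named condensate and papilla. They numbered 36 in the only WT library with 20 or more and 66 and 73 in the Grhl3-/- libraries. Their sums carried 3551 to 4952 CPM of basal IFE markers and 215 to 2779 CPM of melanocyte markers, highest in the WT library, whose part in the P0 dermal values was not tested.

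Grhl3 itself, in suprabasal-like cells, read 87.5 and 107.1 CPM in E14.5 WT against 60.6 and 64.1 in Grhl3-/-, 35.4 and 39.0 against 17.3 and 11.6 at E16.5, and 28.6 and 27.2 against 8.92 and 16.6 at P0. Every Grhl3-/- library lay below both WT libraries of its age, and transcript from the locus remained in all 6. A 3′ tag that lies outside a deleted part does not check the deletion. The methods give 1 male and 1 female per genotype and age. By Xist and Ddx3y in basal-like sums, all 5 P0 libraries had at most 0.16 CPM of Xist with 44.2 to 73.6 CPM of Ddx3y, E16.5 WT 1 and WT 2 both had Xist at 1748 and 1535 CPM, and Grhl3-/- 1 at E16.5 had both (126.9 CPM of Xist and 31.8 of Ddx3y). The dermal-like sum of Grhl3-/- 1 at E16.5 held 0.368 CPM of Xist and 40.85 of Ddx3y, and its follicle-like sum 76.51 and 41.73. Genotype was thus not balanced by sex before birth, and P0 differed from E16.5 WT in sex as well.

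Promoter windows were read because 5 of these genes differed by genotype at P0 in each epithelial class. Of all genes, 37.9% were called there in basal-like and 37.4% in follicle-like cells. RefSeq gave 17 windows of 250 bases upstream of a start for the 10 genes (GRCm38.p6). By GRCm38 annotation Axin2 spans chr11:108920349-108950783 and Lef1 chr3:131110471-131224356, both on the plus strand, and Gsk3b chr16:38089001-38246084, also plus. Of the 4 Lef1 windows, 2 lie within the span of the gene, and the one farther downstream is printed. The windows below are printed 5′ to 3′ on the gene's strand. They belong to Axin2, the gene with the largest difference, to Lef1, which moved the other way, and to Gsk3b, which was called in neither class. Capitals mark TCAAAG, the TCF/LEF core CTTTGA read on the other strand.
Axin2, chr11:108920099-108920348, plus strand: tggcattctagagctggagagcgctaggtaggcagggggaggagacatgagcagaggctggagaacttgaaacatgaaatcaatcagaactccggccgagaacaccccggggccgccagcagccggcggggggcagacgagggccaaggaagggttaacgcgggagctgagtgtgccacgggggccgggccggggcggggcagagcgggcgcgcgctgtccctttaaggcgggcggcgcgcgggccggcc
Lef1, first start, chr3:131110047-131110296, plus strand: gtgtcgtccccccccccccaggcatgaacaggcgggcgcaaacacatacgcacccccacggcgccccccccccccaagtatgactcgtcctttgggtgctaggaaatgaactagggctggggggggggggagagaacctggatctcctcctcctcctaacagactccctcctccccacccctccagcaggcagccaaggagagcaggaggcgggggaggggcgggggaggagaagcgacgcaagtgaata
Lef1, downstream internal start, chr3:131156044-131156293, plus strand: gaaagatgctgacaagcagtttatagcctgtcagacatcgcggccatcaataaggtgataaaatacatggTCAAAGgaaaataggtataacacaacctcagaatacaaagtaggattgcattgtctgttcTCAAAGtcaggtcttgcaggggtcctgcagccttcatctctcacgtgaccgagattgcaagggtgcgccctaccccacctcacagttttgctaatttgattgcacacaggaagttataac
Gsk3b, chr16:38088751-38089000, plus strand: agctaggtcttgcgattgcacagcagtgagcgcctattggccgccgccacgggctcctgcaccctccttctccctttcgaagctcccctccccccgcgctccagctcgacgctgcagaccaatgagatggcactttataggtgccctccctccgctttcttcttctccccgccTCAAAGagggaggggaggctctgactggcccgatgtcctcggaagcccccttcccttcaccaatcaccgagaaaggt
Both strands were searched. CTTTGA lay in 13.8% of 32851 such windows of all genes, and among the 17 windows in that of the downstream internal Lef1 start (2 matches, 180 and 120 bases upstream) and that of Gsk3b (1 match, 77 bases upstream). The GRHL site AACCGGTT lay in 0.116% of all windows, and AACCNGTT, which contains it, in 1.79%. Neither lay in any of the 17, so no matches overlapped. A missing match says only that these letters are absent from this stretch.

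Of the DNA-binding factors, Lef1 was highest in basal-like cells among the 3 pooled classes before birth, and in the follicle it fell between E14.5 and E16.5. In the class comparison below, Lef1 did not pass the threshold between follicle-like and basal-like cells at E14.5 (log2 fold change −0.21). In WT libraries it read 175.2 and 181.5 CPM in basal-like cells at E14.5, 172.4 and 183.2 at E16.5 and 90.1 and 77.0 at P0. In follicle-like cells it was 167.5 and 159.3 CPM at E14.5, then 60.4 and 65.2 at E16.5 and 57.9 and 63.3 at P0. In dermal-like cells it rose from 34.3 and 39.5 CPM at E14.5 to 78.0 and 85.0 at E16.5. Ranked over the 9 WT class and age groups, basal-like E14.5 and E16.5 overlapped at the top, and follicle-like E16.5 and P0 overlapped near the bottom. Within the follicle at P0, the matrix, the dividing pool that forms the shaft, held 107.0 and 102.2 CPM of Lef1 against 45.6 and 57.6 in bud and outer root sheath cells and 11.9 and 10.7 in the upper follicle. Within the dermis at E16.5, condensate and papilla cells held 221.3 and 243.1 CPM against 56.5 and 58.0 in other fibroblasts.

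Tcf7 was low in basal-like cells, and among the 3 classes it was highest in the follicle at E14.5 and in the dermis at E16.5. It read 3 to 8 CPM in basal-like WT sums (2.93 to 7.81), 27.0 and 25.4 CPM in E14.5 follicle-like sums, 14.2 and 13.9 CPM in dermal-like sums at E14.5, 12.8 and 15.4 CPM in follicle-like sums and 38.9 and 38.1 CPM in dermal-like sums at E16.5. Condensate and papilla cells at E16.5 reached 129.3 and 127.0 CPM, against 25.3 and 22.9 in other fibroblasts. T cell-like cells, where TCF7 is a lineage factor, had a median of 112 CPM. Tcf7l1 read 33.2 to 39.0 CPM in dermal-like cells before birth, and at E16.5 it read 13.5 and 11.6 CPM in basal-like and 13.7 and 6.96 CPM in follicle-like cells. Tcf7l2 read 90.9 and 66.9 CPM in basal-like and 124.7 and 78.5 in follicle-like cells of the 2 replicated WT libraries at P0, against 29.3 to 65.4 CPM in the WT sums of the 3 classes before birth. The v1 WT library did not share these P0 levels, with 23.0 and 30.9 CPM.

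Of the signal relay, Ctnnb1 stood out in E14.5 follicle-like cells, with 918.5 and 979.4 CPM against 399.7 and 433.6 in basal-like and 210.6 and 226.3 in dermal-like cells. Gsk3b read 113.3 to 179.2 CPM over the WT sums of the replicated libraries, where most neighbours in its order overlapped, and 80.7 and 76.9 CPM in basal-like and follicle-like cells of the v1 WT library. Axin2 lay between 10.8 and 31.9 CPM in every WT sum before birth and between 68.6 and 118.1 CPM at P0 in the libraries of the same chemistry. Among the 3 classes Nkd1 was highest in the dermis, with 168.3 to 240.4 CPM in dermal-like WT sums before birth against 3.62 to 33.6 in epithelial ones. Outside them its median was 100.1 CPM in Schwann and neural-like, 91.2 in melanocyte-like and 80.7 in erythroid-like cells. In E16.5 condensate and papilla cells it reached 517.5 and 528.3 CPM, and 185.6 and 191.1 CPM in other fibroblasts. Rnf43 was higher in the epithelial classes than in the dermis before birth, with 7.27 to 14.7 CPM in basal-like WT sums before birth and 54.9 and 33.7 at P0, while E14.5 dermal-like WT sums held 3 UMIs of it among 48414623. T cell-like cells had a median of 9.35 CPM of Rnf43. Gpc3 was dermal, with 568.4 to 757.4 CPM in dermal-like WT sums before birth, 173.8 to 248.1 in follicle-like and 108.5 to 144.9 in basal-like sums over all ages of the replicated libraries, and the v1 WT library read 57.4 CPM in basal-like cells. Erythroid-like cells had a median of 291.5 CPM of Gpc3 (151.7 to 416.9 over 8 libraries), above every WT epithelial sum at the median.

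**Figure D1:**
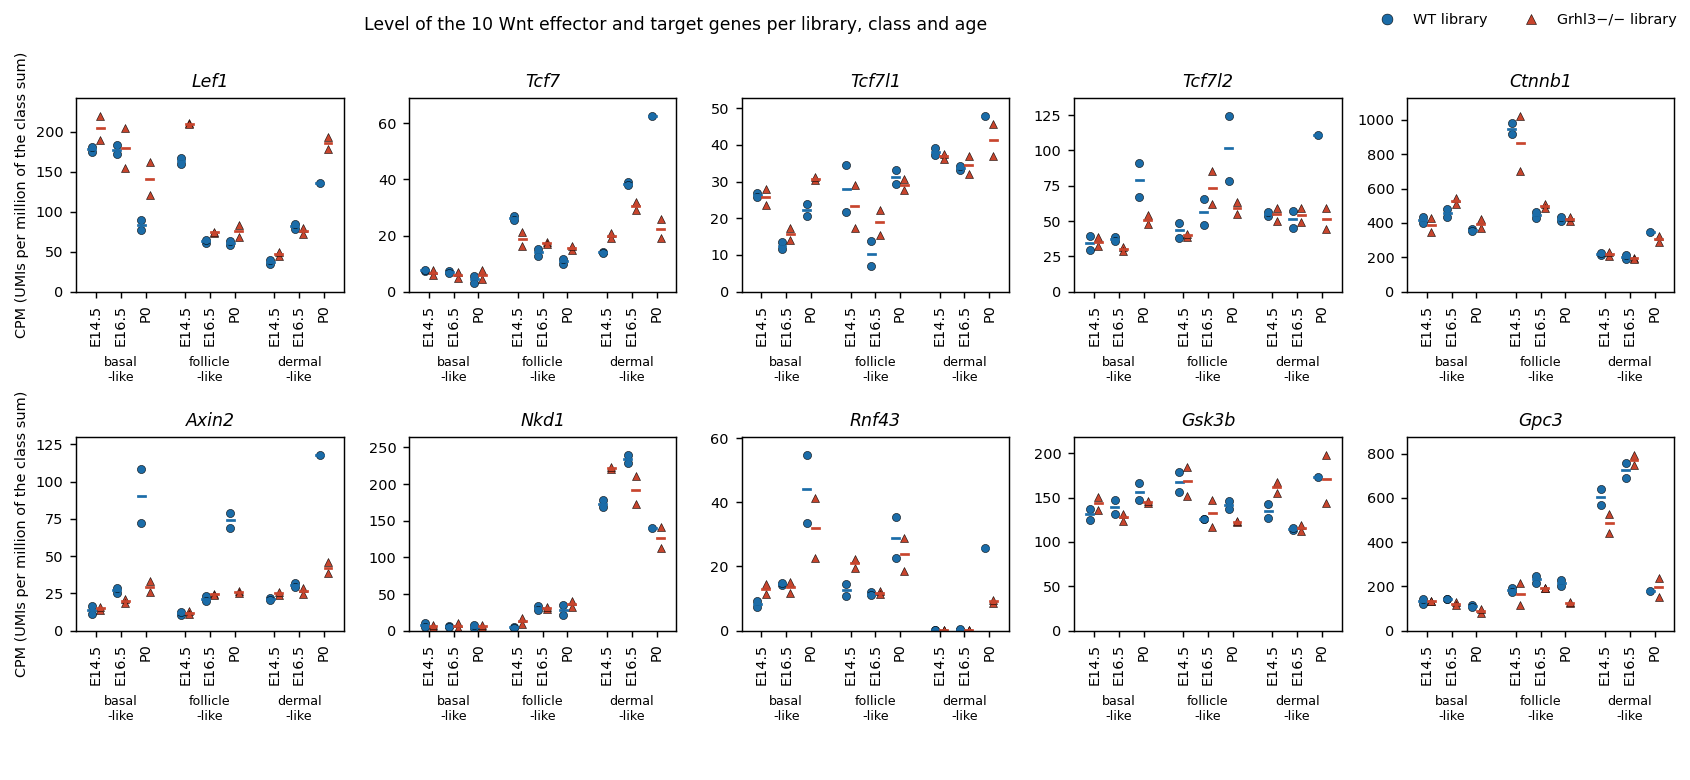
CPM (a gene's UMIs scaled to all UMIs of the class sum, linear axis from 0) of each of the 10 genes by class and age. Points are libraries (circles WT, triangles Grhl3-/-) and bars are means of 2 libraries, or single values at P0 for dermal-like WT. Axin2 at P0 sits at 68.6 to 108.7 CPM in epithelial WT sums and 25.1 to 33.1 in Grhl3-/- ones, and Nkd1 and Gpc3 are highest in dermal-like cells before birth.

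**Figure D2:**
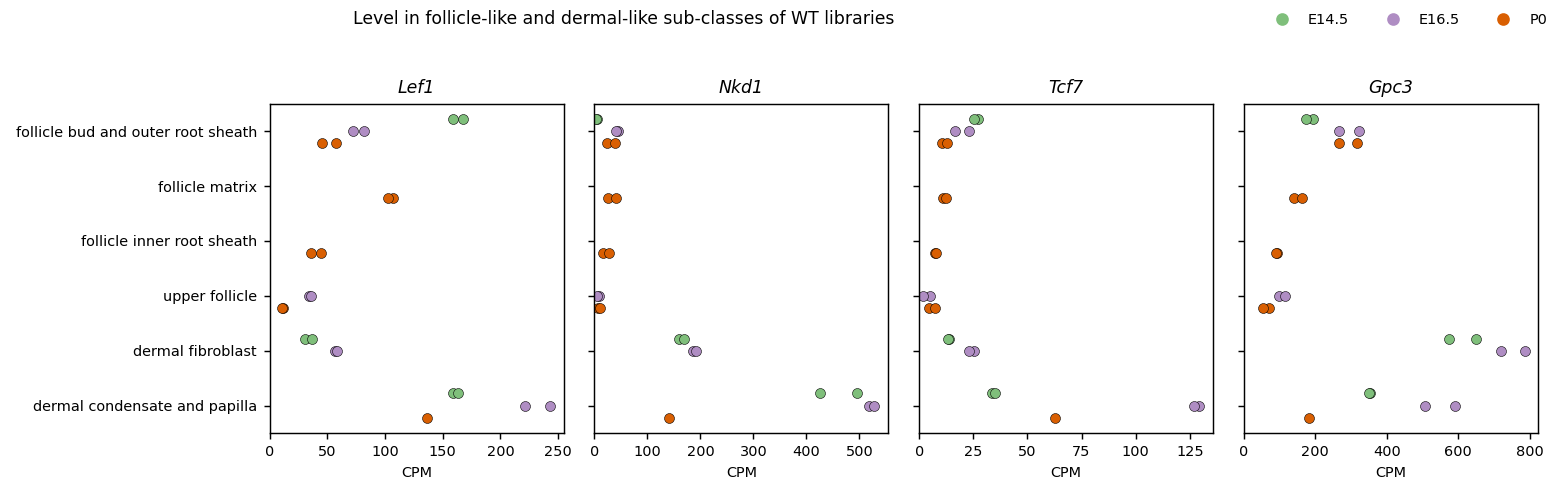
CPM per WT library of Lef1, Nkd1, Tcf7 and Gpc3 in follicle-like and dermal-like sub-classes, coloured by age. Before birth Nkd1 and Tcf7 are highest in condensate and papilla cells, with Nkd1 at 425.9 to 528.3 CPM, and Gpc3 is highest in other fibroblasts.

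The classes were compared within WT libraries to ask where the genes are used. The comparison used edgeR's quasi-likelihood test on UMIs summed per library and class, with the library as a block, and values are log2 fold changes ± SE with Benjamini-Hochberg adjusted p. At E14.5, 2 of 10 were higher in follicle-like than in basal-like cells, where 3.4% of 15090 genes were called: Ctnnb1 (1.13 ± 0.09, adjusted p = 1.2e-16) and Tcf7 (1.72 ± 0.46, adjusted p = 0.015). Leaving out either E14.5 WT library left 1. At E16.5, 7 of 10 differed (16.3% of all genes), with Nkd1 2.29 ± 0.19 higher and Lef1 1.65 lower in the follicle (−1.65 ± 0.12). Without E16.5 WT 2 the count was 4. At P0 all 10 differed (43.8% of all genes), 6 higher and 4 lower, and without P0 WT 1 the count was 5. Nkd1 (2.35 ± 0.15), Tcf7 (1.26 ± 0.18) and Gpc3 (0.90 ± 0.09) were the largest of those higher, and Rnf43 (−0.66 ± 0.11) and Lef1 (−0.51 ± 0.10) of those lower. The clustering left these genes and 59 other Wnt pathway genes out, so they did not define the classes.

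Dermal-like and basal-like cells differed in 9 of 10 genes at E14.5, where 47.9% of all genes were called, and in 9 of 10 at E16.5, where 59% were. Nkd1 was the largest of those higher in the dermis, at 4.59 ± 0.19 and 5.28 ± 0.14, and Gpc3 was higher by 2.15 ± 0.10 and 2.25 ± 0.09. Tcf7 was higher by 0.85 ± 0.27 at E14.5 and 2.38 ± 0.15 at E16.5. Lef1 was lower in the dermis, by −2.30 ± 0.12 at E14.5 and −1.20 ± 0.10 at E16.5, and so was Ctnnb1, by −0.96 ± 0.08 and −1.26 ± 0.07. Rnf43 was 137-fold higher in basal-like than dermal-like cells at E14.5, with a counting interval of 42.3 to 701, since the dermal side held 3 UMIs. The genes that did not pass were Gsk3b at E14.5 (0.02, 95% interval −0.18 to 0.22) and Axin2 at E16.5 (0.10, −0.13 to 0.33). Without E14.5 WT 2 the E14.5 count was 5.

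**Figure D3:**
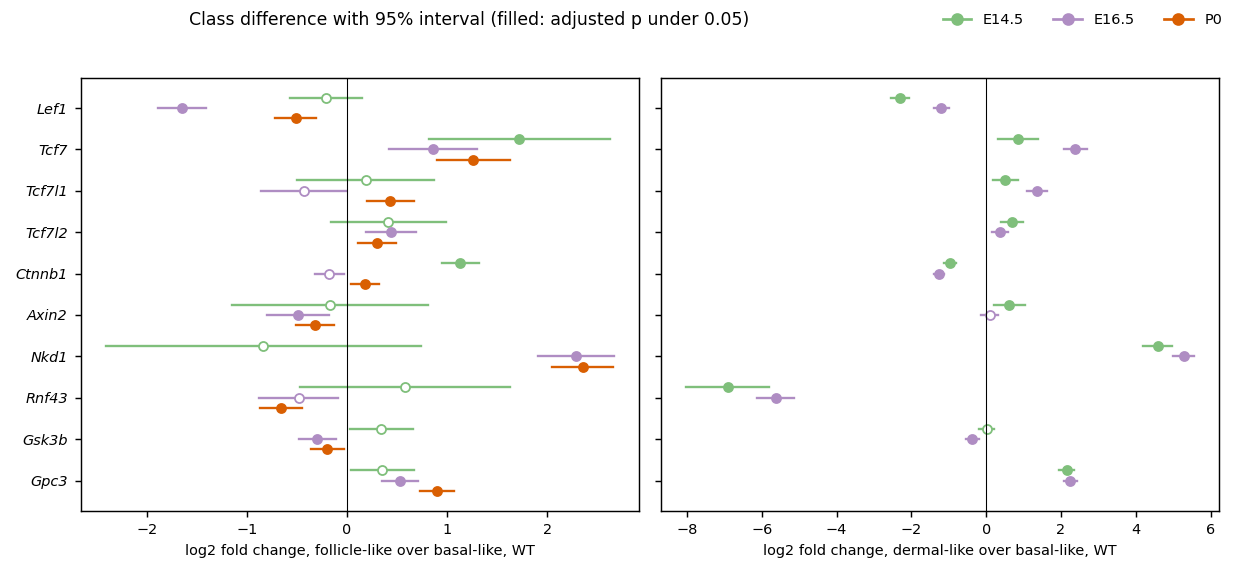
log2 fold change with 95% interval of each gene, follicle-like over basal-like cells (left) and dermal-like over basal-like cells (right) in WT libraries, coloured by age. Filled points have an adjusted p under 0.05. Nkd1 lies at 4.59 and 5.28 in the right panel, and Rnf43 lies far to the left there.

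The ages were compared within WT libraries. Between E14.5 and E16.5, 2 of 10 genes differed in basal-like cells, where 15% of all genes were called: Axin2 rose by 1.09 ± 0.26 (adjusted p = 0.0092) and Tcf7l1 changed by −0.98 ± 0.20 (adjusted p = 0.0024). Without E14.5 WT 2 the count was 0, and it was also 0 with the replicate number as a block. In follicle-like cells 4 differed (8.47%): Nkd1 rose by 2.93 ± 0.70, while Tcf7l1 (−1.58 ± 0.44), Lef1 (−1.36 ± 0.17) and Ctnnb1 (−1.08 ± 0.14) fell. The E14.5 class was all bud and outer root sheath cells, while that of E16.5 also held upper follicle cells, and within the bud and outer root sheath Lef1 read 167.5 and 159.3 CPM at E14.5 and 72.2 and 82.0 at E16.5. The Nkd1 value starts from 5.40 and 3.62 CPM, or 1 and 2 UMIs, in the E14.5 sums, and without E14.5 WT 2 the count was 2. In dermal-like cells 5 rose (31.4%), among them Tcf7 by 1.56 ± 0.10, Lef1 by 1.24 ± 0.08 and Axin2 by 0.64 ± 0.10. Condensate and papilla cells were 100 and 88 of the 2540 and 3209 dermal-like WT cells at E14.5 and 745 and 544 of 4260 and 2868 at E16.5, and the part of this mix was not tested. Within the other fibroblasts Lef1 read 30.2 and 36.5 CPM at E14.5 and 56.5 and 58.0 at E16.5, and Tcf7 13.6 and 13.4 against 25.3 and 22.9. Rnf43, the fifth, went from 3 to 16 UMIs, a ratio of 4.78 with a counting interval of 1.37 to 25.6.

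Between E16.5 and P0, 7 of 10 differed in basal-like cells (59.8% of all genes) and 4 of 10 in follicle-like cells (50.8%). Axin2 rose by 1.73 ± 0.18 in basal-like and 1.83 ± 0.15 in follicle-like cells, Rnf43 by 1.60 ± 0.24 and 1.38 ± 0.27, and Tcf7l2 by 1.07 ± 0.15 and 0.90 ± 0.20. Tcf7l1 rose in both, by 0.83 ± 0.16 and 1.64 ± 0.24. These rises rest on the replicated libraries. In basal-like cells the v1 WT library at P0 lay below both E16.5 WT libraries for Axin2 (19.2 against 25.5 and 28.7 CPM), Rnf43 (10.6 against 14.2 and 14.7) and Tcf7l2 (23.0 against 38.7 and 35.8), and in follicle-like cells for Axin2 (19.1 against 23.2 and 19.7) and Tcf7l2 (30.9 against 65.4 and 47.5). In basal-like cells Lef1 (−1.10 ± 0.15), Gpc3 (−0.37 ± 0.11) and Ctnnb1 (−0.35 ± 0.12) fell. In follicle-like cells Lef1 did not pass (−0.00, 95% interval −0.26 to 0.25). The follicle-like class held 0 matrix cells in the E16.5 WT libraries and 1024 and 961 in the P0 WT libraries. Within bud and outer root sheath cells, both P0 WT values of Lef1 given above lay below both E16.5 ones. The part of this mix in the follicle-like age differences was not tested. In dermal-like cells Axin2 and Rnf43 read higher, and Nkd1 (−1.21) and Gpc3 (−2.46) lower, with 1 WT library at P0. That library was assumed to vary like the others, and its dermal-like cells all fell in clusters named condensate and papilla. Dermal fibroblast markers summed to 1712 CPM in that library, and its dermal-like sum also carried basal IFE and melanocyte markers. Rnf43 read 25.8 CPM in this sum of 36 cells and 270976 UMIs. Its means in P0 WT were 44.3 CPM in basal-like and 28.9 CPM in follicle-like cells. The part of transcripts from other cells in the P0 dermal-like values was not tested.

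The genotypes were compared to ask whether loss of GRHL3 changes the response. Before birth, 0 of 10 genes passed in basal-like cells at E14.5 (0.00826% of 12112 genes were called) or E16.5 (0.413%), and 0 of 10 in follicle-like cells at E14.5 (0% of 11151) or E16.5 (0.126%). At an unadjusted p under 0.05 the counts were 0 and 2 in basal-like cells, where 485 and 1144 of 12112 genes had such a p. In follicle-like cells they were 0 and 2, where 578 and 671 of 11151 genes did. DESeq2 called 0 in all 4 comparisons. At E16.5 the nominal differences were Axin2 (−0.49 ± 0.23) and Gpc3 (−0.295 ± 0.12) in basal-like cells and Tcf7l1 (0.81 ± 0.31) and Gpc3 (−0.32 ± 0.15) in follicle-like cells. The intervals were wide for the low genes: Nkd1 in E14.5 follicle-like cells read 1.85 with an interval of −0.06 to 3.75.

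In dermal-like cells at E14.5, Tcf7 read 14.2 and 13.9 CPM in WT and 19.1 and 20.9 CPM in Grhl3-/-, a difference of 0.50 ± 0.10 (adjusted p = 0.030). It was the 1 of 10 genes called, where 1.83% of 15232 genes were. Of the 10, 6 had an unadjusted p under 0.05, as did 2347 of the 15232 genes. The call was lost without E14.5 WT 2, E14.5 Grhl3-/- 1 or 2, or either E16.5 WT library, when the count was 0, and also with the 4 libraries of the age alone (adjusted p = 0.11) and with the replicate block (adjusted p = 0.064). Lef1 (0.35 ± 0.08, adjusted p = 0.062) and Nkd1 (0.35 ± 0.10, adjusted p = 0.097) read higher without passing. At E16.5, 0 of 10 passed (1.03% of all genes), and 0 passed with DESeq2. At an unadjusted p under 0.05 there were 3, against 1179 of all 15232 genes.

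At P0 the picture was different, and Axin2 led it. In basal-like cells Axin2 read 108.7 and 72.5 CPM in WT and 25.7 and 33.1 CPM in Grhl3-/- libraries. In follicle-like cells it read 79.2 and 68.6 against 26.4 and 25.1 CPM. The genotypes did not overlap in either class. At E16.5, WT basal-like cells had read 25.5 and 28.7 CPM. Axin2 was 3.14-fold lower in basal-like cells (−1.65 ± 0.17, adjusted p = 2.2e-06) and 2.80-fold lower in follicle-like cells (−1.48 ± 0.12, adjusted p = 6.0e-07), in 2 of 2 libraries against both WT. The v1 WT library, which has no replicate and another chemistry, read 19.2 CPM in basal-like cells (95% Poisson interval 17.1 to 21.5, counting error only) and 19.1 CPM in follicle-like cells, below all 4 other P0 libraries. The part of chemistry and preparation in the P0 values was not tested.

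Lef1 moved the other way. In basal-like cells it read 90.1 and 77.0 CPM in WT and 161.7 and 121.2 CPM in Grhl3-/- libraries, and 65.1 CPM in the v1 WT library. The genotypes did not overlap, and the difference was 0.77 ± 0.15 (adjusted p = 0.00081), or 1.70-fold. In follicle-like cells it read 57.9 and 63.3 against 67.8 and 82.9 CPM, a difference of 0.35 ± 0.11 (adjusted p = 0.018) that did not pass without P0 Grhl3-/- 2 (0.22, adjusted p = 0.27) or P0 WT 1 (0.35, adjusted p = 0.065). The mix of the class also differed: the matrix held 1024 and 961 of 3528 and 3457 follicle-like WT cells and 1978 and 1792 of 4977 and 4315 Grhl3-/- cells, and the upper follicle 256 and 317 against 187 and 178. The part of this mix in the follicle-like values was not tested. Inside the follicle the matrix, where Lef1 was highest, overlapped between genotypes (107.0 and 102.2 against 85.6 and 117.9 CPM), while bud and outer root sheath cells did not (45.6 and 57.6 against 61.8 and 67.3 CPM). The summed bud and outer root sheath markers also moved in basal-like cells, from 2592 and 2822 CPM in WT to 4063 and 4653 CPM in Grhl3-/- and 6406 CPM in the v1 WT library, and their part in the Lef1 value was not tested.

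The other 3 factors split. Tcf7l2 read 90.9 and 66.9 CPM in basal-like WT cells and 47.6 and 54.2 in Grhl3-/- cells, a difference of −0.65 ± 0.15 (adjusted p = 0.0022). In follicle-like cells it read 124.7 and 78.5 against 63.3 and 54.7 CPM (−0.75 ± 0.18, adjusted p = 0.0045), which did not pass without P0 WT 1 (−0.31, adjusted p = 0.20) or P0 Grhl3-/- 2 (−0.62, adjusted p = 0.062). The v1 WT library read 23.0 and 30.9 CPM in these classes, below all 4 others. Tcf7l1 was higher in Grhl3-/- basal-like cells (23.9 and 20.7 against 30.4 and 31.3 CPM, 0.46 ± 0.15, adjusted p = 0.021), and not in follicle-like cells (−0.06, interval −0.42 to 0.30). Its basal call was lost without P0 WT 2 (0.37, adjusted p = 0.13) or P0 Grhl3-/- 1 (0.41, adjusted p = 0.089) and with DESeq2 (0.45, adjusted p = 0.13). Tcf7 was higher in Grhl3-/- follicle-like cells (9.80 and 11.8 against 14.7 and 16.4 CPM, 0.57 ± 0.15, adjusted p = 0.0074), and the v1 WT library read 17.6 CPM there. Without P0 Grhl3-/- 2 it did not pass (0.51, adjusted p = 0.076).

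Of the remaining genes Gpc3 was called in both classes. It read 203.8 and 229.5 CPM in WT and 122.8 and 130.9 in Grhl3-/- follicle-like cells (−0.74 ± 0.14, adjusted p = 0.00059), with 192.2 CPM in the v1 WT library. Of the 4 follicle sub-classes, the upper follicle overlapped (70.9 and 52.8 against 55.5 and 43.9 CPM), and the others had both WT values of Gpc3 above both Grhl3-/- values. The sub-classes come from the same 4 libraries, and the share of all genes with such an order was not counted. In basal-like cells the difference was −0.39 ± 0.11 (adjusted p = 0.012), and it was −0.04 (adjusted p = 0.83) without integration across libraries, while it also failed at resolution 0.6, with the 4 P0 libraries alone (−0.37, adjusted p = 0.081) and without P0 Grhl3-/- 1 (−0.30, adjusted p = 0.10). Gpc3 is X-linked. The P0 libraries did not differ in Xist, and the part of sex in the Gpc3 values was not tested. Ctnnb1 (0.12 ± 0.12 in basal-like and 0.05 ± 0.13 in follicle-like cells), Gsk3b (−0.12 ± 0.11 and −0.17 ± 0.11), Nkd1 (0.04 ± 0.37 and 0.36 ± 0.18) and Rnf43 (−0.53 ± 0.22 and −0.25 ± 0.20) did not pass.

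In all, 5 of 10 genes differed in P0 basal-like cells, 2 higher and 3 lower, where 37.9% of 12112 genes were called, and 5 of 10 in follicle-like cells, 2 higher and 3 lower, where 37.4% of 11151 genes were. Read against those shares, the counts alone say little about these genes. Without P0 Grhl3-/- 1 the basal count was 3, and without P0 WT 1 or P0 Grhl3-/- 2 the follicle count was 3 or 2. The median of the 10 was −0.04 in basal-like cells, against −0.00 over all genes, and −0.11 against −0.07 in follicle-like cells. The P0 dermal-like sums carried more basal IFE markers (4952 CPM in WT, 3551 and 3729 in Grhl3-/-) than fibroblast markers (1712, and 1440 and 2549). They also carried melanocyte markers, highest in the WT sum of 36 cells. The part of epithelial and melanocyte transcripts in their Axin2 difference was not tested. That difference is therefore not read as a separate dermal result. In P0 dermal-like cells Axin2 alone passed (118.1 CPM in 1 WT library against 45.7 and 38.4, −1.31 ± 0.29, adjusted p = 0.033), where 3.26% of all genes were called, and it did not pass without either Grhl3-/- library, without integration (adjusted p = 0.051) or with the replicate block (adjusted p = 0.092).

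**Figure D4:**
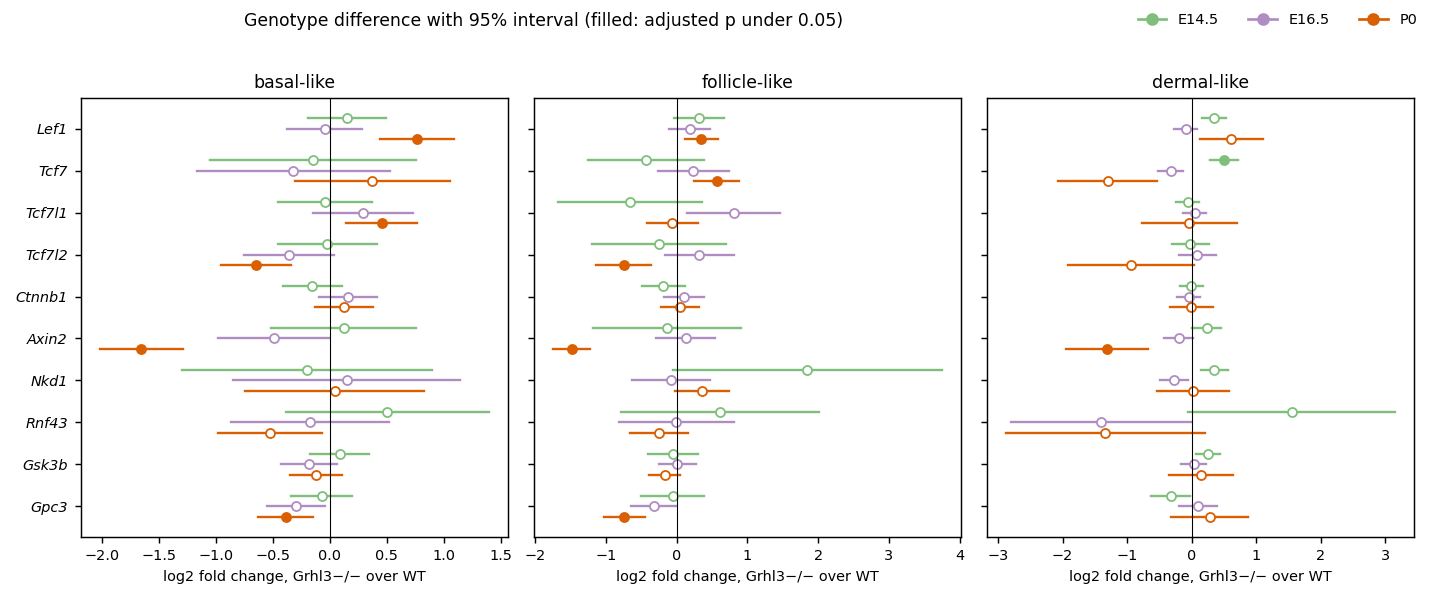
log2 fold change with 95% interval of each gene, Grhl3-/- over WT, in the 3 classes, coloured by age. Filled points have an adjusted p under 0.05. In basal-like cells the P0 value of Axin2 is −1.65 and that of Lef1 is 0.77, and no point before birth is filled in the epithelial classes.

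The genotype difference was itself compared between ages and classes. In basal-like cells the P0 difference exceeded that of E16.5 for Axin2 (by −1.16 ± 0.29, adjusted p = 0.014) and Lef1 (by 0.81 ± 0.22, adjusted p = 0.019), the 2 of 10 genes that passed where 14.3% of all genes did. In follicle-like cells Axin2 (−1.61 ± 0.23, adjusted p = 0.00054) and Tcf7l2 (−1.07 ± 0.30, adjusted p = 0.031) passed, where 10.2% did. Between classes at P0, where 12.2% of 15090 genes passed, the difference was smaller in follicle-like than in basal-like cells for Lef1 (−0.41 ± 0.14, adjusted p = 0.046) and Tcf7l1 (−0.50 ± 0.16, adjusted p = 0.026), and Axin2 did not differ beyond its spread (0.18, interval −0.10 to 0.45). Several of these rest on single libraries: without E16.5 Grhl3-/- 1 the basal count was 0, without E16.5 WT 2 or P0 Grhl3-/- 1 it was 1, and without E16.5 WT 2, E16.5 Grhl3-/- 2, P0 WT 1 or P0 Grhl3-/- 2 the follicle count was 1. Between classes Lef1 turned to 0.046 without P0 Grhl3-/- 1 and was −0.809 without P0 Grhl3-/- 2, and DESeq2 called 0 of 10. The count was 0 without P0 WT 2 and 1 without E14.5 WT 2, P0 WT 1 or P0 Grhl3-/- 1.

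Other P0 classes were read for the same genes, with no background removed. In 7 of the 8 classes with 20 cells in each of the 4 replicated libraries, both WT values of Axin2 lay above both Grhl3-/- values: melanocyte-like cells read 78.4 and 61.4 against 33.4 and 30.8 CPM, and macrophage and Langerhans-like cells 18.7 and 13.4 against 8.38 and 5.85 CPM. T cell-like cells overlapped (6.81 and 11.9 against 16.0 and 6.05 CPM). Lef1 was higher in both Grhl3-/- libraries in 6 of 8 classes, including suprabasal-like cells (4.58 and 4.56 against 24.41 and 14.48 CPM) and macrophage and Langerhans-like cells (6.81 and 5.93 against 17.0 and 14.1 CPM). Tcf7l2 and Gpc3 were higher in both WT libraries in 5 of 8 classes and Gsk3b in 6 of 8, while in suprabasal-like cells Gpc3 was higher in both Grhl3-/- libraries (40.9 and 32.7 against 32.1 and 25 CPM). Tcf7 was higher in both Grhl3-/- libraries in 4 classes and in both WT libraries in 1, and Ctnnb1 in 3 each way. In the v1 WT library Axin2 read 13.4 CPM in suprabasal-like, 17.4 in melanocyte-like and 4.61 in macrophage and Langerhans-like cells. In each it lay below all 4 replicated P0 libraries, both Grhl3-/- ones included. The share of all genes with such orders was not counted, and the 8 classes come from the same 4 libraries. The part of free RNA and of library preparation in these orders was not tested.

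**Figure D5:**
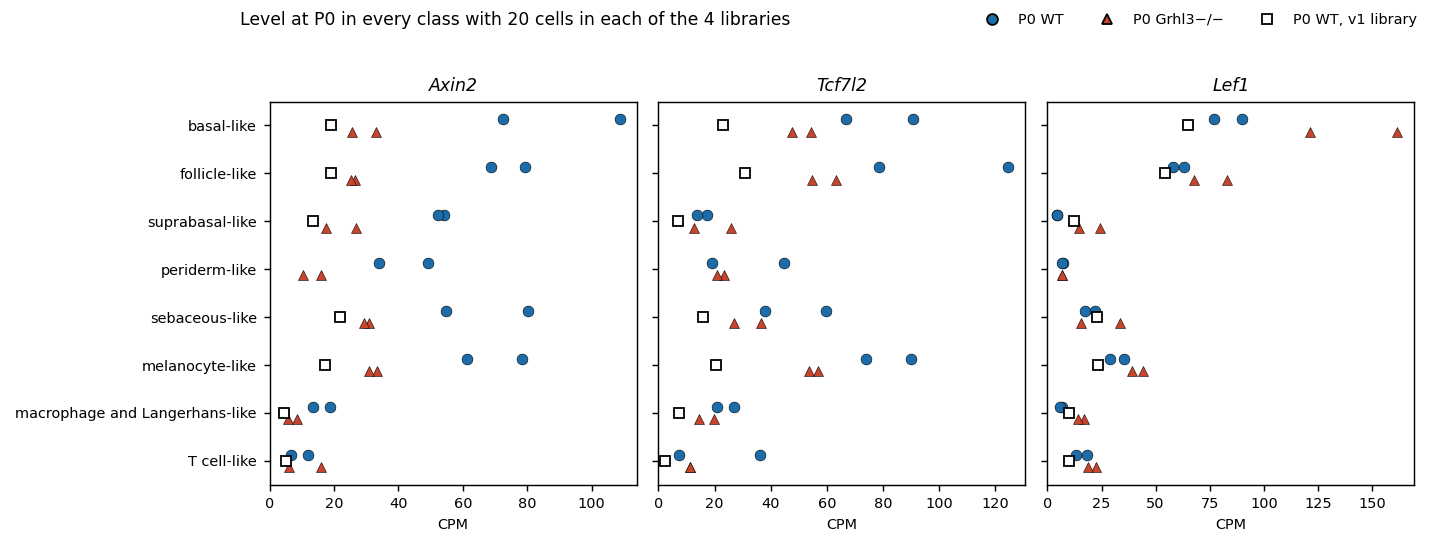
CPM per P0 library of Axin2, Tcf7l2 and Lef1 in 8 classes (circles WT, triangles Grhl3-/-, open squares the WT library of v1 chemistry, not shown for periderm-like cells). Both WT circles of Axin2 lie above both triangles in 7 of 8 classes, and the v1 square lies near 19 CPM in basal-like and follicle-like cells.

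The share of cells with a transcript was read after thinning each cell to 3000 UMIs. Axin2 was found in 22.7% ± 6.31 (SD, n = 2) of WT and 8.34% ± 1.72 (SD, n = 2) of Grhl3-/- basal-like cells at P0, and Lef1 in 21.9% ± 0.24 and 33.3% ± 7.20. Unthinned, Axin2 read 58.8% and 22.6%, and Lef1 54.6% and 64.9%. Other cell types, with no background removed, held Axin2 in 0 to 3.8% (macrophage and Langerhans-like), 0 to 8.44% (erythroid-like) and 0 to 17.1% (melanocyte-like) of cells over the libraries. They held Lef1 in 0.317 to 3.28%, 0 to 15.2% and 0 to 12.5%, and T cell-like cells in up to 25%. Erythroid-like cells came from the E14.5 and E16.5 libraries alone. The Axin2 shares of Grhl3-/- basal-like cells (7.13 and 9.55%) lie within the melanocyte-like range and are not read as expression on their own. The Lef1 shares of WT basal-like cells (21.7 and 22.1%) lie below the highest T cell-like share. These ranges pool libraries of both genotypes and several ages, so they are not a background for a single group. Median depths were 7782 to 10402 UMIs in P0 basal-like and 5891 to 8270 in P0 macrophage and Langerhans-like cells. In dermal-like E16.5 WT cells, Nkd1 was found in 44.5% ± 0.69 and Gpc3 in 81.8% ± 1.37 (SD, n = 2), against 1.19 to 5.23% and 1.37 to 12.7% in macrophage and Langerhans-like, 9.38 to 25.6% and 24.7 to 58.7% in erythroid-like, and 13.5 to 37.5% and 4.65 to 22.9% in melanocyte-like cells.

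Beside the 10 genes, 59 other Wnt pathway genes were listed by role. In P0 basal-like cells 22 of 52 tested differed by genotype, 7 higher and 15 lower, where 37.9% of all genes were called, with a median of −0.24 against −0.00 over all genes. Of the 15 receptors tested 5 were lower and 0 higher, of 11 nuclear co-factors 5 were lower and 2 higher, of 11 relay genes 2 were lower and 1 higher, and of 12 targets 3 moved each way. Those with the smallest p were Jup (−1.14 ± 0.12), which encodes the β-catenin relative plakoglobin, the β-catenin antagonist Cby1 (1.15 ± 0.15), the target Myc (−1.90 ± 0.25), the co-activator Bcl9l (−1.03 ± 0.15), the receptor Fzd6 (−1.16 ± 0.17) and the Groucho relative Aes (0.62 ± 0.11). In follicle-like cells 21 of 50 differed, 5 higher and 16 lower, where 37.4% of all genes were called, led by Jup (−0.78 ± 0.10), Ctnnbip1 (0.60 ± 0.09), a β-catenin binding inhibitor, Aes (0.60 ± 0.10), Myc (−1.29 ± 0.22), Fzd6 (−0.89 ± 0.16) and Gpc4 (−0.63 ± 0.13). At E14.5 and E16.5, 0 of 52 passed in basal-like cells, where 0.00826% and 0.413% of all genes were called. In follicle-like cells 0 of 50 passed, where 0% and 0.126% of all genes were called. In dermal-like cells 1 of 58 passed at E14.5 (Cd44, −0.35) and 1 of 58 at E16.5 (Jup, −0.79), where 1.83% and 1.03% of all genes were called. At P0, with 1 WT library, Aes read 1.42 there. Between E16.5 and P0 in WT, 29 of 52 differed in basal-like cells, 24 higher and 5 lower, where 59.8% of all genes were called, with Bcl9l 2.19 higher and Aes at −1.05. Wnt4, a ligand, read 580.2 and 648.3 CPM in P0 WT against 532.3 and 363.1 in Grhl3-/- basal-like cells (−0.46 ± 0.18, adjusted p = 0.059). In follicle-like cells it read 91.2 and 92.4 against 112.5 and 96.0 CPM, and the genotype difference itself differed between the classes (0.72, adjusted p = 3.5e-05). Dkkl1 was at most 0.96 CPM in the basal-like and 3.08 CPM in the follicle-like sums of these 4 libraries.

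Over the 17 WT sums of 3 classes, which share libraries and composition, the genes most like Lef1 among 5769 were Serpinb10 (Pearson r 0.864), Pdlim1 (0.784), Emb (0.777), Wnt6 (0.771) and Wnt10a (0.767). For Axin2 they included Atf7, Nr2c2 (0.96), Arhgef1 (0.958) and Git2 (0.958). For Gpc3 they were Bgn (0.976), Selm (0.957), Krtcap2 (0.954), Ppib (0.954) and Mfap2 (0.952). Among the 10 genes themselves Nkd1 and Gpc3 were the closest pair (0.889), followed by Tcf7l2 and Axin2 (0.857).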

How the data were processed

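The study measured single-cell transcriptomes of mouse back skin with the Chromium 3′ system in 13 libraries. The deposited matrices hold raw UMI counts per gene and barcode, which the authors made with Cell Ranger (1.3.1 in the submitters' processing notes) on mm10, not normalized, for barcodes that include cells outside the filters of the methods. Of 97363 barcodes, 86507 passed the cell filters given in the methods (600 to 4800 genes before birth, 900 to 7700 at P0, at most 10% mitochondrial UMIs), with median depths of 7448 to 9976 UMIs per library. Any pair of libraries shared at most 114 barcodes. Cells of each age were integrated in Seurat 5.3.0 (R 4.3.3; 3000 variable genes without the Wnt genes, 30 components, 20 neighbours, resolution 1.0), epithelial clusters were clustered again at resolution 0.8, and clusters were named from marker lists with score limits of 0.5 and 0.25 set after the scores had been seen. Doublets were kept in the main result, and the 5% of cells with the highest doublet scores (scanpy 1.11.5) were removed as an alternative.

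UMI counts were summed per library and class (at least 20 cells) and tested with edgeR 4.0.16 (quasi-likelihood, TMM, filterByExpr, Benjamini-Hochberg, threshold 0.05) in 1 fit per class: 12112 genes, 12 sums and 6 residual degrees of freedom for basal-like cells, 11151, 12 and 6 for follicle-like cells, and 15232, 11 and 5 for dermal-like cells, where P0 WT 2 dropped out with 15 cells. Classes were compared in a fit with the library as a block (15090 genes, 35 sums). DESeq2 1.42.0 was an alternative. The test was run on simulated basal-like counts for the P0 genotype comparison, with known changes in far fewer genes than were called in the data. The other fits were not checked in this way. With 2 libraries against 2, an exact two-sided permutation test cannot give p below 0.333, so none is given. CPM is a gene's UMIs scaled to all UMIs of its class sum. The v1 library entered no test. The methods describe the 2 replicates as separate littermates.

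The named genes are the 10 members, the check genes, at most 6 pathway genes per comparison and the 5 genes most like Lef1, Axin2 and Gpc3 by correlation of log2(CPM + 10) among genes with a mean of at least 20 CPM, of which 1 is not reported here. Members, lists and tests were chosen with earlier results of these data known. Gene and promoter positions are from GRCm38 annotation (GENCODE M21 and RefSeq).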

Additional observations from a re-analysis of the deposited data

Results flagged for a closer look

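The genotype difference itself differed between ages or classes for 6 values, each by the interaction term of the edgeR fit. In basal-like cells the Grhl3-/- minus WT difference at P0 lay 0.81 above that at E16.5 for Lef1 and at −1.16 relative to E16.5 for Axin2. In follicle-like cells it lay at −1.07 for Tcf7l2 and −1.61 for Axin2. At P0 the difference in follicle-like cells lay at −0.41 for Lef1 and −0.50 for Tcf7l1 relative to basal-like cells. Without P0 Grhl3-/- 1 this Lef1 value turned to 0.046, and DESeq2 called neither gene. All are on the log2 scale with 2 libraries per genotype and age.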

How the results depend on the processing

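Of the values of the 10 genes under other settings, 1782 stayed on their side of the threshold, 42 lost the call, 29 gained one and 2 reversed. Direction was compared only for values called in the main fit or in the other setting, so uncalled values may have changed sign. With single libraries left out, 2657 stayed on their side, 68 lost the call, 14 gained one and 1 reversed. The reversed values were Tcf7l2 in dermal-like cells, E16.5 against E14.5, without integration (−0.46), Ctnnb1, follicle-like against basal-like at E16.5, at resolution 0.6 (0.24) and the class difference of the genotype effect on Lef1 at P0 without P0 Grhl3-/- 1 (0.046, against −0.809 without P0 Grhl3-/- 2). The causes were not tested. In basal-like cells, Axin2 at P0 ranged from −1.91 to −1.37 and Lef1 from 0.46 to 1.02, both called in 22 of 22 settings. Axin2 in follicle-like cells ranged from −1.52 to −1.31, also in 22 of 22.

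The number of the 10 genes called changed as follows. With the replicate block it was 0 for E16.5 against E14.5 in basal-like cells, 0 for dermal-like genotype at E14.5 and 0 at P0, and it moved no other such count by over 1.5 times. Over all genes the block moved the count to 863 for E16.5 against E14.5 in basal-like and 347 in follicle-like cells, and for genotype to 3 in basal-like cells at E14.5, 28 in follicle-like cells at E16.5 and 113 in dermal-like cells at E14.5. Deviations of same-numbered libraries from their group means had correlations of −0.07 to 0.07 over the genes. With 2 libraries per group and counting error in each, this cannot tell whether the numbers pair the samples. For dermal-like genotype at E14.5 it was 0 with the 4 libraries of the age, 3 with DESeq2, 5 without the filter on low counts, 3 at resolution 0.6 and 2 without integration. At E16.5 it was 1 without the filter, and at P0 it was 0 without integration. It was 2 for E16.5 against E14.5 in follicle-like cells at resolution 0.6, and 1 for the basal age difference of the genotype effect without integration. For the class difference of the genotype effect it was 0 with DESeq2, 1 with DESeq2's size factor scaling in edgeR, and 1 with basal-scored clusters led by a follicle marker added to the basal class, a setting chosen after seeing the data.

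With 1 library left out, the range was 3 to 6 for genotype in basal-like and 2 to 6 in follicle-like cells at P0, 0 to 1 in dermal-like cells at E14.5 and 0 to 1 at P0. It was 0 to 2 for E16.5 against E14.5 in basal-like and 2 to 4 in follicle-like cells. For the genotype effect between ages it was 0 to 2 in basal-like and 1 to 3 in follicle-like cells, and between classes 0 to 3. For follicle-like against basal-like cells it was 1 to 2, 4 to 7 and 5 to 10 at the 3 ages, and 5 to 9 for dermal-like against basal-like cells at E14.5.

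Shares moved with depth. Thinned to 1500 UMIs, unthinned, or with at least 2 UMIs, Lef1 at P0 read 11.8%, 54.6% and 5.51% of WT and 20.2%, 64.9% and 7.46% of Grhl3-/- basal-like cells. Axin2 read 13.3%, 58.8% and 3.04%, and 3.78%, 22.6% and 0.248%. Nkd1 in E16.5 WT dermal-like cells read 27.9%, 64.1% and 20%, and Gpc3 60.8%, 94.1% and 56.9%. Follicle-like sums of 22 to 111 cells at E14.5 limit what could be detected there.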

Other observations

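Clusters that scored as basal but were led by a follicle marker stayed outside the classes. They held 29 to 110 cells per library at E14.5, 0 at E16.5 and 119 to 223 in the 4 replicated P0 libraries, 1.76 and 1.84% of WT and 2.44 and 2.39% of Grhl3-/- cells.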
